A study of Mus musculus with 4 samples.

Results

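The 6 receptors Cxcr3, Cxcr6, Ccr2, Cx3cr1, S1pr5 and Cxcr4 were taken by symbol from the 27998 genes listed, and all 6 were detected. They were followed in the blood of C57BL/6 mice bearing subcutaneous MC-38 tumors, a mouse colon carcinoma line. Blood was enriched for CD3+ T cells and profiled by droplet single-cell RNA sequencing, in which each unique molecular identifier (UMI) counts 1 captured transcript. The 4 libraries, 1 for each treatment and drawn from different mice, were untreated, anti-PD-L1 (blockade of a checkpoint ligand), anti-OX40 (an agonist of a costimulatory receptor, given with the TLR9 agonist CpG), and PDOX, the combination. How many mice gave each library is not given in the sources used here. All mice carried the tumor, so no library represented blood of a tumor-free animal, and with 1 library per treatment no treatment difference could be tested against the spread between mice. Intervals on single-library values below are 95% intervals that cover counting error only.

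Chemokine receptors are G protein-coupled receptors that steer leukocytes along gradients of chemokines. Cxcr3 answers the interferon-induced ligands Cxcl9 and Cxcl10, Cxcr6 answers Cxcl16, Ccr2 answers Ccl2 and Ccl7, Cx3cr1 answers fractalkine (Cx3cl1), and Cxcr4 answers Cxcl12, which retains cells in the bone marrow. S1pr5 is a receptor for sphingosine 1-phosphate, a lipid abundant in blood, and is known for the exit of NK cells from bone marrow and lymph nodes. Receptors for inflammatory chemokines are typical of activated and memory T cells, whereas naive T cells rely on Ccr7 to enter lymph nodes.

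By the RefSeq annotation of GRCm38.p6, 4 of the 6 genes lie on chromosome 9. Cxcr6 (chr9:123806477-123811754, plus strand) and Ccr2 (chr9:124101918-124109140, plus strand) are separated by 290 kb, and Cx3cr1 (chr9:120048683-120068296) and S1pr5 (chr9:21242917-21248443) are on the minus strand of the same chromosome. Cxcr3 is at chrX:101731535-101734147 and Cxcr4 at chr1:128588199-128592299, both on the minus strand. Cxcr6 lies inside Fyco1 (chr9:123789500-123851899), which is transcribed from the opposite strand. The 250 bases upstream of the RefSeq start are shown for the 3 receptors that hold the RUNX core ACCACA (reverse strand TGTGGT) there, because Runx3 was among the transcription factors measured. The motif is in capitals, and sequences are from RefSeq (GRCm38.p6), 5′ to 3′ on the gene's strand.

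Cxcr3, chrX:101734148-101734397, minus strand: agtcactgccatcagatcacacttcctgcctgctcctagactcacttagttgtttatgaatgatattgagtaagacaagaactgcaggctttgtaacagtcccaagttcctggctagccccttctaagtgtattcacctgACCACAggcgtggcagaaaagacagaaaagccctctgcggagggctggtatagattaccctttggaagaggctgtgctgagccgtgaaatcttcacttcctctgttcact

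Cxcr6, chr9:123806227-123806476, plus strand: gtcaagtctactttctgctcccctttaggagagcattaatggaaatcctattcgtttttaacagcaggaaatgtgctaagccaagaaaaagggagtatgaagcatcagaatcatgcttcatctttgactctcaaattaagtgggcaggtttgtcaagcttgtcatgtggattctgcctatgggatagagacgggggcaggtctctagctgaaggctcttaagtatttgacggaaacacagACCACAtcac

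Cx3cr1, chr9:120068297-120068546, minus strand: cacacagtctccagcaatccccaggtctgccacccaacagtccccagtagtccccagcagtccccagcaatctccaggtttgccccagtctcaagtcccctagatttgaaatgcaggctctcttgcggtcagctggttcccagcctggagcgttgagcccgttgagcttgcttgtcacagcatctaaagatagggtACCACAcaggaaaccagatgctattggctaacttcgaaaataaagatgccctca

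The first base of the motif lay 110 bases before the start in Cxcr3, 10 in Cxcr6 and 54 in Cx3cr1. It was in 3 of 6 receptor promoters and in 14.0% of the 32851 promoters in the table. The other 2 motifs searched on both strands, the T-box element TCACAC (reverse strand GTGTGA; Eomes is a T-box factor) and the E-box CAGGTG (reverse strand CACCTG; bound by Zeb2), were each in 1 of 6, that of Cxcr3, and in 12.3% and 17.2% of all promoters. These are descriptions of letters and not of binding.

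Of 5434 deposited cells, 5299 had 200 or more genes. The median cell of a library had 1439 to 1627.5 UMIs, not counting genes of the mitochondrion, ribosome or hemoglobin. CD8 T cells (UMIs of Cd3 and of Cd8a or Cd8b1, none of Cd4) numbered 306 in untreated, 626 in anti-PD-L1, 663 in anti-OX40/CpG and 444 in PDOX, and CD4 T cells 92, 186, 266 and 297. Few other leukocytes remained after the enrichment, with 65 NK cells and 70 monocytes in all, and 2152 cells fell in no gate. The 132 B cells gave the background: Cxcr3 had 0 UMIs there, Cxcr6, Cx3cr1 and S1pr5 had 1 each, Ccr2 had 5 and Cxcr4 had 9. Libraries shared 14 barcodes in all.

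The gates differed in the receptors they carried. Cxcr3 and Cxcr6 were mainly found in T cells: over all libraries, 11.7% of CD8 T cells and 17.2% of CD4 T cells had a Cxcr3 UMI, against 0 of 70 monocytes, and Cxcr6 was found in 14.4% of CD8 and 15.0% of CD4 T cells but in 1 monocyte and 1 of 65 NK cells. Cxcr3 was seen in 6 NK cells. Ccr2, best known for recruiting monocytes, was seen in 32.9% of monocytes, 26.2% of NK cells, 14.6% of CD4 T cells and 8.78% of CD8 T cells. Cx3cr1 was found in 55.7% of monocytes and 13.8% of NK cells, and S1pr5 in 46.2% of NK cells, where no other receptor of the 6 was as common. Cxcr4 was found in 14 of 70 monocytes (a level of 0.764 UMIs per 10000), 4.90% of CD8 and 3.33% of CD4 T cells, and in 0 of 65 NK cells, where a floor of 3 counts allows a share of cells with a UMI of up to 4.62% at this depth. Depth differed little between T cells and NK cells (medians of 1682, 1631 and 1690 UMIs for CD8 T, CD4 T and NK) and was 2091 in monocytes. At 750 UMIs per cell the share with Cx3cr1 in monocytes was 17.2%, and the share with S1pr5 in NK cells was 33.3%. The order of Ccr2 shares did not hold at that depth, with 12.5% in monocytes, 13.3% in NK cells, 7.81% in CD4 T cells and 4.53% in CD8 T cells, and Cxcr4 was found in 4.69% of monocytes.

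**Figure D1:**
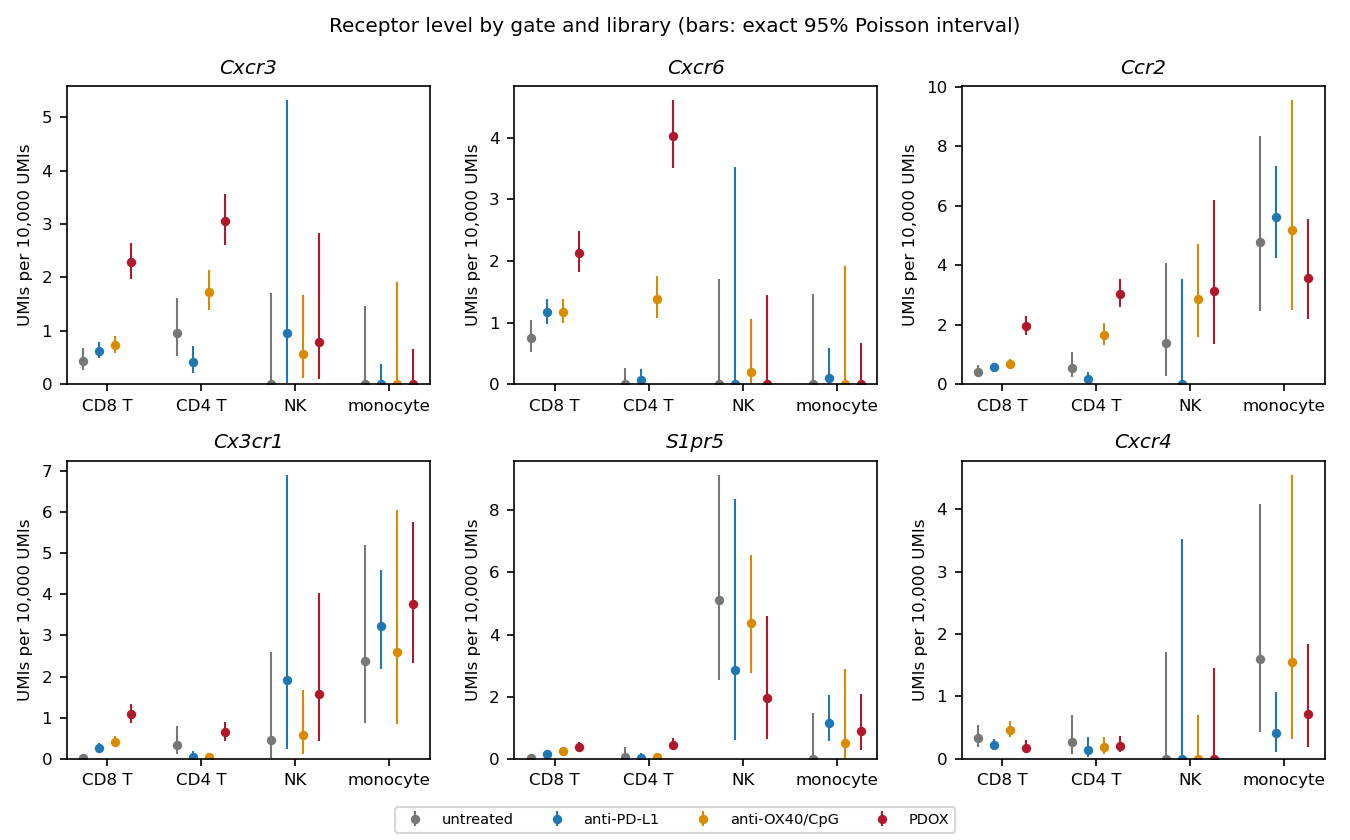
Level of each receptor (UMIs per 10000 UMIs, linear axis) in the CD8 T, CD4 T, NK and monocyte gates; each point is 1 library with its exact 95% Poisson interval. S1pr5 was highest in NK cells (3.81 over all libraries) and Ccr2 and Cx3cr1 in monocytes (4.89 and 3.21).

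Among monocytes, the receptors divided by subset. The 18 classical-type cells (more UMIs of genes such as Ly6c2 and Chil3) had a Ccr2 level of 8.58 UMIs per 10000, and the 49 nonclassical-type cells (more of genes such as Ace and Treml4) had 1.43, a ratio of 5.98 (interval 3.40 to 11.2). The ratio was 1.52 (0.414 to 6.05) in untreated, 15.6 in anti-PD-L1, 3.95 in anti-OX40/CpG and 4.27 in PDOX. Of the 73 classical-type UMIs 49 were from anti-PD-L1, without which the ratio was 3.18 (1.53 to 6.97). Cx3cr1 ran the other way, at 1.76 and 4.30, a ratio of 0.41 (0.212 to 0.749). S1pr5 and Cxcr4 were also lower in classical-type cells, with 2 against 15 UMIs for S1pr5 and 1 against 14 for Cxcr4, but without anti-PD-L1 the upper limits of these ratios were 1.35 and 1.12. No library held 10 cells of both subsets, so none of this could be tested over libraries. Classical-type cells were deeper, with a median of 5085 UMIs against 1785, and the part of depth in these differences was not tested.

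T cells were then divided by whether UMIs of a set of antigen-experience genes (S100a4, S100a6, Lgals1, Ahnak, Itgb1, Id2 and Vim) outnumbered those of a naive set that included Ccr7, Lef1, Dapl1, Igfbp4, Satb1, Actn1 and Tcf7. The classes are ranges of a score and not cell types, and 10.7% of CD8 and 7.97% of CD4 T cells lay near the limit. Experienced cells made up 8.50% of CD8 T cells in untreated, 15.2% in anti-PD-L1, 27.3% in anti-OX40/CpG and 52.9% in PDOX. The shares among CD4 T cells were 8.70%, 14.0%, 36.8% and 62.6%.

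The inflammatory receptors were concentrated in experienced cells, a direction known beforehand for genes of this score. In these same data the paper found Cxcr3 and Cxcr6 raised in Id2+ CD8 T cells, together with Lgals1, Ahnak and Itgb1. In Id2+ CD4 T cells it found Ccr2 raised as well. In experienced CD8 T cells the Ccr2 level per 10000 UMIs was 3.02 in untreated, 2.06 in anti-PD-L1, 1.79 in anti-OX40/CpG and 3.08 in PDOX. In naive-type CD8 T cells it was 0.0936, 0.0558, 0.139 and 0.222. Cxcr3 stood at 2.64, 1.96, 1.53 and 3.38 in experienced and at 0.164, 0.167, 0.342 and 0.635 in naive-type CD8 T cells. Cxcr6 stood at 3.2, 2.71, 2.42 and 3.27 against 0.444, 0.636, 0.570 and 0.413. In a fit of summed counts over the 4 libraries (edgeR quasi-likelihood test, Benjamini-Hochberg adjustment over all genes), 22.4% of 5306 genes were called. Cxcr3, Cxcr6 and Ccr2 passed the filter on low counts and were called, each higher in 4 of 4 libraries. Cxcr6 was higher by 2.44 ± 0.17 on the log2 scale (SE, adjusted p = 8.2e-14, edgeR). Ccr2 was higher by 4.36 ± 0.24 and Cxcr3 by 2.89 ± 0.21. Ccr2 (296 UMIs against 27) and Cxcr3 (295 against 69) passed the filter through the experienced class alone. Their values restate the counts and are no separate support.

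The other 3 receptors were too sparse for that fit. Cx3cr1 had 156 UMIs in 537 experienced and 12 in 1502 naive-type CD8 T cells, and S1pr5 had 75 and 6. Cxcr4 had 26 UMIs in experienced and 85 in naive-type cells, a ratio of levels of 0.606 (0.375 to 0.95) that rested on 1 library. The ratio was 0.537 in untreated, 1.06 in anti-PD-L1, 0.299 (0.114 to 0.665) in anti-OX40/CpG and 2.42 (0.639 to 13.5) in PDOX. Of the naive-type UMIs 48 were from anti-OX40/CpG, and without that library the ratio was 1.001 (0.544 to 1.79).

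Other receptors of the fixed list shifted in both directions in the same fit. Of 6 tested among 29 considered, 2 rose in experienced CD8 T cells and 3 fell. S1pr4, another sphingosine 1-phosphate receptor, rose by 0.46 ± 0.15 and was higher in 3 of 4 libraries, while the gut-homing receptor Ccr9 fell by 3.0 and S1pr1, which lets lymphocytes leave lymph nodes, fell by 0.90. Of 10 transcription factors tested, 5 were higher, among them Zeb2 (4.27) and Eomes (1.36), and 3 lower, among them Klf2 (-0.85), which drives S1pr1. Zeb2 met the filter on low counts through its counts in the experienced class, so its value is no separate support. Of 20 signalling genes, 10 rose and 2 fell. The median log2 fold change was 0.38 for signalling genes, 0.83 for factors, -0.40 for the other receptors and -0.02 for all genes.

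CD4 T cells showed the same division for Cxcr3 and Ccr2. Over the 3 libraries with at least 10 cells of each class, 15.9% of 3839 genes were called. Ccr2 was higher in experienced cells by 5.34 ± 0.39 and Cxcr3 by 4.00 ± 0.31, and both were called. Both passed the filter through the experienced class alone, where they had 242 and 246 UMIs against 4 and 12 in naive-type cells. These values restate the counts and are no separate support. The Cxcr3 level in experienced CD4 T cells was 5.12 in untreated, 1.49 in anti-PD-L1, 3.49 in anti-OX40/CpG and 4.23 in PDOX; the untreated value rested on 8 cells. Cxcr6 had 280 UMIs in experienced and 3 in naive-type CD4 T cells but did not pass the filter. Of its 280 UMIs, 212 were from PDOX, 66 from anti-OX40/CpG, 2 from anti-PD-L1 and 0 from untreated.

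**Figure D2:**
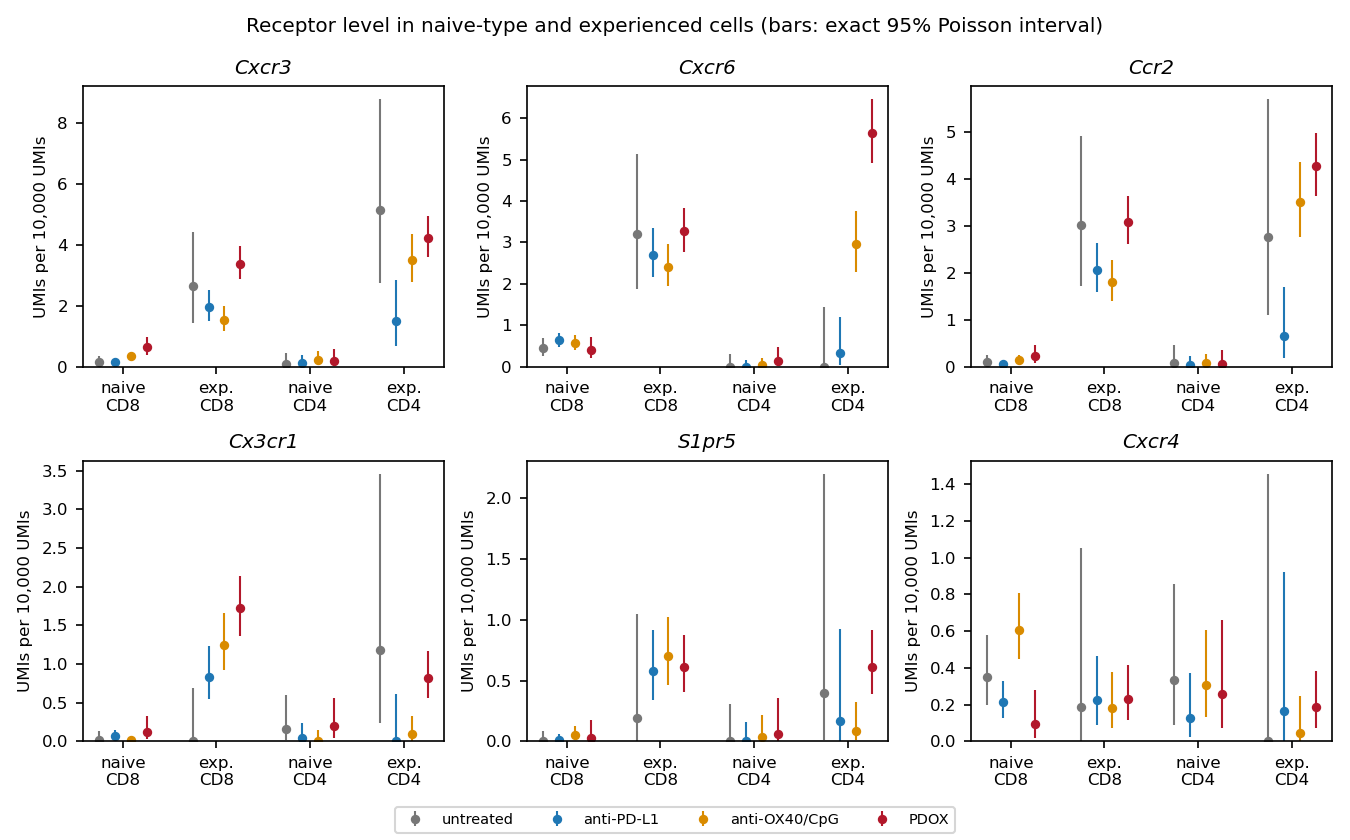
Level of each receptor (UMIs per 10000 UMIs, linear axis) in naive-type and experienced CD8 and CD4 T cells; each point is 1 library with its exact 95% Poisson interval. Cxcr6 was present in naive-type CD8 T cells of all 4 libraries (0.413 to 0.636) and nearly absent from naive-type CD4 T cells.

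Cxcr6 was also found in naive-type CD8 T cells. The gene had 134 UMIs in 1502 naive-type CD8 T cells and 3 in 523 naive-type CD4 T cells, and the share of cells with a UMI was 7.99% (6.67 to 9.48) and 0.382% (0.0463 to 1.37), with B cells at 0.758%. A fit of naive-type CD8 against naive-type CD4 T cells, added after these values were seen, gave a log2 fold change of 3.74 ± 0.54 for Cxcr6, higher in 4 of 4 libraries, where 11.6% of 4331 genes were called. The gene passed the filter through the CD8 class alone, so this restates the counts and is no separate support. Thinned to 750 UMIs per cell, the gene did not pass the filter. Among cells whose naive score led by 5 or more UMIs, Cxcr6 still had 89 UMIs in 952 CD8 and 1 in 359 CD4 T cells. The difference in step size between lineages was also fitted, as the experienced-minus-naive difference in CD8 less that in CD4 T cells. It was -3.83 ± 0.86 for Cxcr6 and missed the threshold (adjusted p = 0.080, edgeR, 3 libraries), where 0.11% of 5454 genes were called and no receptor among them.

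No receptor passed the test between the lineages as a whole. CD8 against CD4 T cells gave 5.23% of 6096 genes called and none of the 5 receptors tested, with Cx3cr1 at 1.17 ± 0.48 (adjusted p = 0.23, edgeR) and Cxcr3 at -0.53 ± 0.22 (adjusted p = 0.22), the 2 with an unadjusted p under 0.05; DESeq2 called 0 as well. Single libraries decided this: Cx3cr1 passed without untreated (1.43, adjusted p = 0.032), and Cxcr3 (-0.74, adjusted p = 0.022) and Ccr2 (-0.79, adjusted p = 0.010) without anti-PD-L1, all by edgeR. Experienced CD8 against experienced CD4 T cells gave 1.09% of 4852 genes called and again no receptor of 5; Cx3cr1 was at 1.87 ± 0.43 and higher in 3 of 3 libraries (adjusted p = 0.084, edgeR). It was the 1 receptor with an unadjusted p under 0.05, and DESeq2 called 0. Cx3cr1 passed the threshold without PDOX, at 4.09, and without anti-PD-L1, at 1.72. It had 156 UMIs in the experienced CD8 and 33 in the experienced CD4 T cells of the 3 libraries. The CD4 count was 2 in anti-OX40/CpG and 0 in anti-PD-L1. Cx3cr1 passed the filter on low counts through the CD8 class alone. Its values restate the counts and are no separate support. Zeb2, a factor of terminal effector cells, was at 1.58 ± 0.46 in this comparison (adjusted p = 0.20).

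NK cells differed from experienced CD8 T cells in 2 receptors. Over 3 libraries, 17.3% of 869 genes were called. S1pr5 was higher in NK cells by 2.66 ± 0.49 and Cxcr6 lower by 4.64 on the log2 scale (SE 0.78), and both were called. Cxcr6 had 1 UMI in the NK cells of these libraries and 266 in the T cells. S1pr5 passed the filter on low counts through the NK class alone, and Cxcr6 through the T cell class alone. These values restate the counts and are no separate support. Ccr2 was at 0.23 ± 0.35 and did not pass. Zeb2 was higher in NK cells by 2.12 ± 0.25. With gates on log-normalized values, or with cells thinned to 750 UMIs, neither receptor passed the filter on low counts and no receptor was called. Without anti-OX40/CpG, the library with the 1 UMI, Cxcr6 was at -8.55 and S1pr5 did not pass the filter. All 6 monocyte check markers and the B cell marker Cd79b were at 0 in the NK gate, and Lck was found in 64.6% of its cells. The B cell markers Cd79a and Ms4a1 were at 0 there by the definition of the gate.

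Many experienced cells carried more than 1 of the receptors. Of 537 experienced CD8 T cells, 31.7% had UMIs of 1 receptor, 23.8% of 2 and 15.1% of 3 or more, and the figures for 318 experienced CD4 T cells were 29.2%, 28.0% and 16.4%. In naive-type CD8 T cells, 18.0% had any. Cxcr6 and Ccr2 were found together in 81 experienced CD8 T cells, where the product of their shares, taken within each library and summed, gives 51.3, a ratio of 1.58. The ratio was 1.56 in untreated (3 cells), 1.71 in anti-PD-L1, 1.64 in anti-OX40/CpG and 1.49 in PDOX, above 1 in each. Cx3cr1 and S1pr5 were together in 20 cells against 11.4, a ratio of 1.76. Cxcr3 and S1pr5 were found together in 9 cells against 19.5, a ratio of 0.462, and Cxcr3 and Cx3cr1 in 27 against 35.1. Deep cells hold more of any pair, and at 750 UMIs the ratio was 1.79 for Cxcr6 with Ccr2, 1.98 for Cx3cr1 with S1pr5 (5 cells) and 0.433 for Cxcr3 with Cx3cr1 (4 cells), while Cxcr3 with S1pr5 was seen in 0 cells against 4.25. Experienced CD4 T cells gave 1.46 for Cxcr6 with Ccr2, and Cx3cr1 with S1pr5 were together in 10 cells against 2.53.

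**Figure D3:**
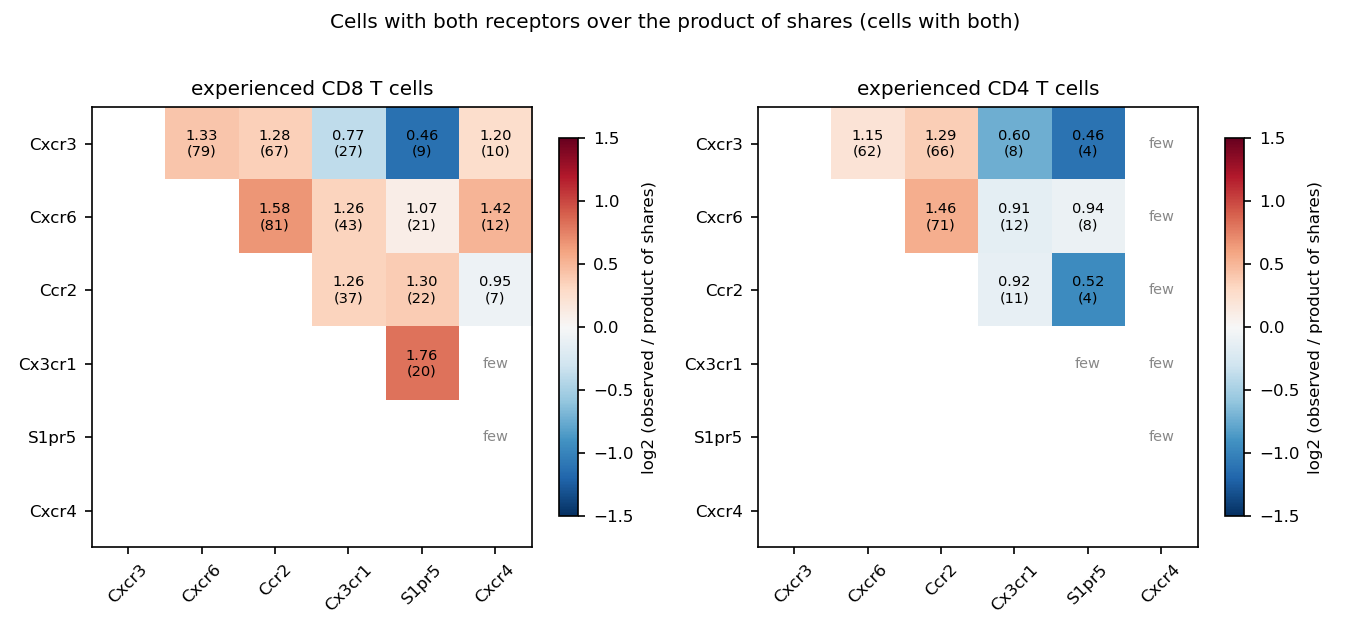
Number of cells with UMIs of both receptors over the number that the product of their shares gives, in experienced CD8 and CD4 T cells of all libraries; colour is the log2 ratio, numbers in brackets are cells with both, and pairs with a product under 5 are marked few. The highest CD8 ratio is Cx3cr1 with S1pr5 (1.76) and the lowest Cxcr3 with S1pr5 (0.46).

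Experienced CD8 T cells with and without a UMI of 1 receptor were compared within libraries. Cxcr3+ cells had less Cx3cr1 and S1pr5. Cx3cr1 had 35 UMIs in Cxcr3+ and 121 in Cxcr3- cells and was lower by 1.31 on the log2 scale (SE 0.29, adjusted p = 0.0013, edgeR, 3 of 3 libraries). S1pr5 had 13 and 61 UMIs and was lower by 1.68 (SE 0.42). It was called as well, but passed the filter through the Cxcr3- class alone, so this restates the counts and is no separate support. In this split 1.09% of 3298 genes were called. Zeb2 was lower in Cxcr3+ cells as well, by 1.95 (SE 0.26), and the leading increases were 1500009L16Rik (1.20), Pkp3 (0.88) and Vim (0.72), the last a gene of the experience score.

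Cxcr6 and Ccr2 were each higher in cells with the other. Cxcr6+ cells had Ccr2 higher by 1.08 ± 0.18 (adjusted p = 0.016, edgeR, 3 of 3 libraries; 0.561% of 2852 genes called), beside Ifitm2 (1.84) and the NK receptor gene Klrc1 (0.93). Ccr2+ cells had Cxcr6 higher by 1.29 ± 0.21 (adjusted p = 0.0088, 4 of 4 libraries; 0.397% of 2518 genes called), with Ifitm2 at 2.33. These 2 results share the same cells and are not independent of each other. Ifitm2 had 119 UMIs in Ccr2+ and 42 in Ccr2- cells. In that split it passed the filter on low counts through the Ccr2+ class alone, so its value is no separate support.

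Cx3cr1+ and S1pr5+ cells shared Zeb2 as a called gene. In Cx3cr1+ cells 1.69% of 2784 genes were called and no receptor, with 1 (Cxcr3, -0.68 ± 0.23) at an unadjusted p under 0.05 and 0 by DESeq2; Klrg1, a marker of terminal effector cells, was higher by 1.90 ± 0.23, Zeb2 by 1.63 ± 0.20 and the cyclin gene Ccnb2 by 1.77 ± 0.36. In S1pr5+ cells 1.45% of 2694 genes were called, again with no receptor (0 by DESeq2); the 2 with an unadjusted p under 0.05 were Cx3cr1 at 1.22 ± 0.35 (adjusted p = 0.085, edgeR; past the threshold without anti-PD-L1, at 1.27) and Cxcr3 at -1.15 ± 0.35 (adjusted p = 0.12), while Zeb2 was higher by 2.19 ± 0.26. The leading increases in S1pr5+ cells were the mitotic genes Ccnb1 (3.58, 18 against 11 UMIs), Ccna2 (2.95, 17 against 17) and Cenpf (2.68, 16 against 20). These mitotic genes passed the filter on low counts through the S1pr5+ class alone. Ccnb2 (39 against 34 UMIs) passed it through the Cx3cr1+ class alone. The values of these genes restate the counts and are no separate support. Cxcr4+ cells were too few for a fit. In CD4 T cells, Cxcr3+ against Cxcr3- cells could be fitted only with a minimum of 5 cells, set after the cell numbers were known; 0.0501% of 1996 genes were called and neither Cxcr6 nor Ccr2, both with an unadjusted p above 0.05 and not called by DESeq2. The split results in CD8 T cells depended on the library block and on single libraries: with no block no receptor was called in the Cxcr3, Cxcr6 and Ccr2 splits, and DESeq2 kept only the Cxcr6 call in the Ccr2 split (1.38). At 750 UMIs per cell no receptor was called in the Cxcr3 split, where Cx3cr1 and S1pr5 did not pass the filter, or in the Cxcr6 split, where Ccr2 was at 1.07 (adjusted p = 0.48, edgeR), while Cxcr6 in the Ccr2 split stayed past the threshold at 1.34. Without PDOX the calls of Cx3cr1 (-0.96), S1pr5 (-1.80) and Ccr2 (1.30) were lost, without anti-PD-L1 those of Ccr2 (1.05) and Cxcr6 (1.17), and without anti-OX40/CpG that of S1pr5 (-1.28).

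**Figure D4:**
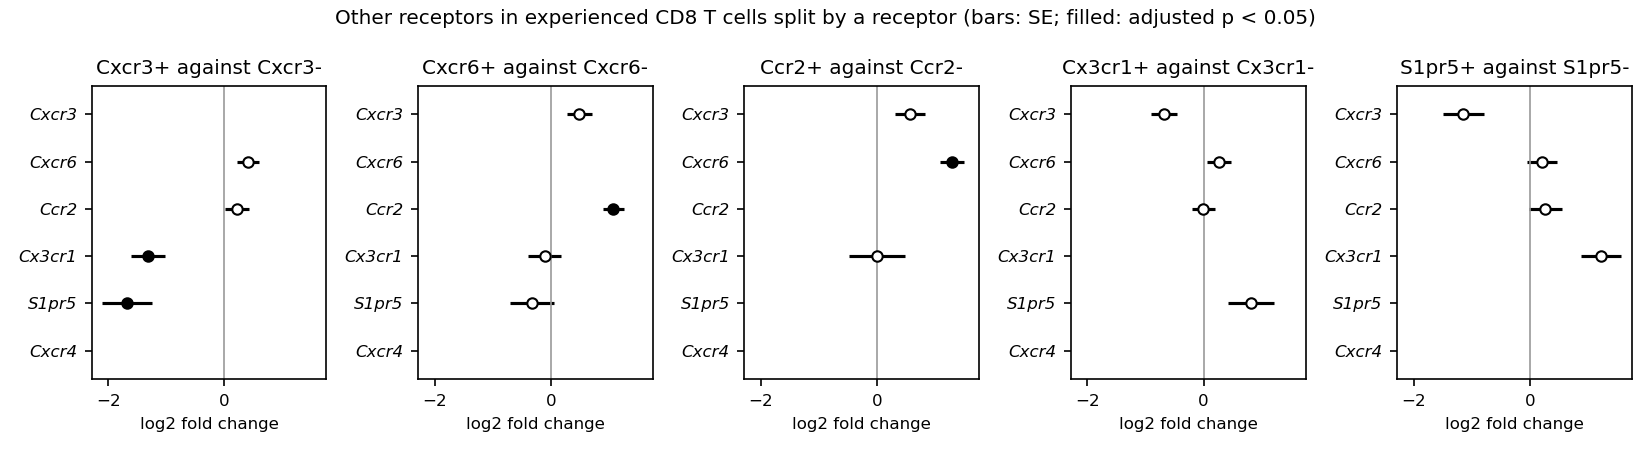
Log2 fold change of the other receptors between experienced CD8 T cells with and without a UMI of the receptor named above each panel; bars are SE and filled points have an adjusted p under 0.05. Filled points are Cx3cr1 and S1pr5 in the Cxcr3 panel (-1.31 and -1.68), Ccr2 in the Cxcr6 panel (1.08) and Cxcr6 in the Ccr2 panel (1.29). S1pr5 in the Cxcr3 panel passed the filter on low counts through the Cxcr3- class alone.

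Across treatments, the levels of Cxcr3, Cxcr6, Ccr2 and Cx3cr1 in the whole CD8 T gate were highest in PDOX. For S1pr5 the ratio of PDOX to anti-OX40/CpG was 1.44 (0.840 to 2.45), an interval that included 1. The Cxcr3 level was 0.437 in untreated, 0.630 in anti-PD-L1, 0.732 in anti-OX40/CpG and 2.29 in PDOX, and the PDOX to untreated ratio was 5.23 (3.32 to 8.66). The Ccr2 ratio was 4.67 (2.92 to 7.87) and that of Cxcr6 2.85 (1.98 to 4.21). Cx3cr1 went from 1 UMI in untreated to 32, 49 and 86 UMIs in the treated libraries, and S1pr5 from 1 to 19, 31 and 30. Cxcr4 was at 0.531 (0.240 to 1.16). In PDOX 5 of 6 receptors reached a ratio of 2, as did 4.95% of 6605 genes with 20 or more UMIs. The counts were 2 of 6 in anti-PD-L1 (3.91% of genes) and 2 of 6 in anti-OX40/CpG (3.9%), in both cases Cx3cr1 and S1pr5 against their 1 UMI. Cx3cr1 and S1pr5 met the minimum only through the treated libraries, so these counts are a description. They also depended on the gate: with gates on log-normalized values both were 5 of 6, and without the top 5% of cells by UMIs that of anti-OX40/CpG was 5 of 6.

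Some markers of other cells moved with the receptors, and others did not. The summed level of 5 NK markers (Klrd1, Nkg7, Gzma, Eomes and Prf1), which cytotoxic T cells also express, was 20.2 UMIs per 10000 in the untreated CD8 T gate, 33.5 with anti-PD-L1, 43.5 with anti-OX40/CpG and 67.1 with PDOX, and in the same order 2.41, 4.05, 9.50 and 35.0 in the CD4 T gate. All 5 were detected in every library in both gates. In the CD8 T gate 3 platelet markers were at 0.695 in PDOX and 0.111 to 0.207 elsewhere, and 3 neutrophil markers at 0.948 and 0.0511 to 0.108. Monocyte markers there were at 1.79 in untreated, 1.12 in anti-PD-L1, 0.638 in anti-OX40/CpG and 0.985 in PDOX. Of the 86 untreated UMIs 66 were in the 26 experienced cells, in 11.5% of them. In experienced CD8 T cells the level was 12.4, 1.997, 1.04 and 1.38 in the same order. In the whole CD8 T gate, in that order, the B cell marker Cd79b was at 0.499, 0.232, 0.196 and 0.253. Erythroid markers there were at 6.39, 0.936, 44.9 and 1.04. In the CD4 T gate 2 basophil markers had 152 UMIs in PDOX, 150 of them in experienced cells, and 0 in each other library. Neutrophil markers in that gate were at 1.03 in untreated, 0.203 in anti-PD-L1, 0.103 in anti-OX40/CpG and 0.735 in PDOX. Monocyte markers were at 2.89, 0.709, 0.991 and 1.94 in the same order. In experienced CD4 T cells they were at 15.4, 1.32, 1.93 and 2.61, the untreated value on 8 cells. The part of all these markers in the receptor levels was not tested.

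In the CD4 T gate Cxcr6 had 0 UMIs in untreated, 2 in anti-PD-L1, 67 in anti-OX40/CpG and 214 in PDOX. Set against the floor of 3 UMIs in untreated, the ratio was 6.70 in anti-OX40/CpG and 19.5 in PDOX, and the 95% intervals from the 0 UMIs themselves began at 5.30 and 15.7. Cxcr3 was at 0.420 (0.178 to 0.979) in anti-PD-L1 and 3.17 (1.83 to 5.92) in PDOX, relative to untreated. A ratio of 2 was reached by 4.44% of genes in anti-PD-L1, 8.06% in anti-OX40/CpG and 10.5% in PDOX; the receptors were not counted, since Cxcr6 met the minimum only through the treated libraries.

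The share of experienced cells rose in the same order of libraries, and its part in these ratios was not tested. Within experienced CD8 T cells the PDOX to untreated ratio was 1.28 (0.741 to 2.39) for Cxcr3, 1.02 (0.618 to 1.80) for Cxcr6 and 1.02 (0.609 to 1.84) for Ccr2, so that a difference was not detectable with 26 untreated cells. Within naive-type CD8 T cells Cxcr3 in PDOX was at 3.88 (1.58 to 10.9) relative to untreated and 3.80 (1.85 to 7.97) relative to anti-PD-L1, on 20 UMIs, while Cxcr6 was at 0.929 (0.422 to 1.98). Cx3cr1 stood apart, with 0 UMIs in the 26 untreated cells and a level of 0.837 in anti-PD-L1 and 1.25 in anti-OX40/CpG; PDOX, at 1.72, was at a ratio of 3.04 to the floor of 3 UMIs in untreated, with a 95% interval from the 0 UMIs that began at 2.42. Relative to anti-OX40/CpG, experienced CD8 T cells of PDOX had Cxcr3 at 2.20 (1.62 to 3.02), Ccr2 at 1.72 (1.28 to 2.32) and Cxcr6 at 1.35 (1.04 to 1.77). The intervals of Cx3cr1, at 1.38 (0.954 to 2.01), S1pr5, at 0.867 (0.495 to 1.52), and Cxcr4, at 1.27 (0.449 to 3.86), included 1. In experienced CD4 T cells, Cxcr6 in PDOX was at 1.91 (1.44 to 2.56) relative to anti-OX40/CpG and Cx3cr1 at 9.21 (2.34 to 79.4), the latter on 31 against 2 UMIs. S1pr5 was at 6.83 (1.69 to 59.8), while the intervals of Cxcr3, at 1.21 (0.918 to 1.61), Ccr2, at 1.22 (0.924 to 1.62), and Cxcr4, on 7 against 1 UMI, included 1. Relative to untreated, Cxcr3 there was at 0.826 (0.469 to 1.59). Untreated experienced cells also had the highest level of monocyte markers, 12.4 in CD8 and 15.4 in CD4 T cells. The part of these markers in the ratios to untreated was not tested.

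Experienced CD4 T cells were also compared by Foxp3. The 24 cells with a UMI of Foxp3, the regulatory T cell factor, had Cxcr3 in 66.7% and Ccr2 in 50.0% of cells, against 39.8% and 36.1% of the 294 cells without. The ratio of Cxcr3 levels was 1.68 (1.17 to 2.38), and 1.27 (0.827 to 1.89) without untreated. That of Ccr2 levels was 1.25 (0.820 to 1.85), an interval that included 1. It was 0.929 without anti-OX40/CpG and 2.06 without PDOX. Cxcr6 was lower in the 24 cells with Foxp3, with 4 UMIs against 276 and a ratio of levels of 0.138 (0.0373 to 0.357). Cx3cr1 and S1pr5 had 0 UMIs in the 24 cells and 36 and 27 in the rest, and the upper limits of these ratios, 1.03 and 1.39, do not separate them from equal levels. No test over libraries was made.

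The genes whose level followed each receptor most closely over the 16 combinations of 4 gates and 4 libraries were Icos (Pearson r = 0.956), Dtx1 and H2-Q7 for Cxcr3, Atxn1 (0.894), Top2a and Phf11c for Cxcr6, and Myo1f (0.928), Cd44 and Gyg for Ccr2. For Cx3cr1 they were Stard3nl (0.938), Cyba and Prr13, for S1pr5 Tmbim6 (0.895), Txndc17 and Ptms, and for Cxcr4 Ifngr2 (0.928), Rnf149 and Crk. The points share libraries and differ in depth, and 4109 genes were ranked. Transcripts of the ligands were scarce in these T cell-enriched libraries: none of the 10 listed passed the filter in any fit, and Cxcl16 had 10 UMIs in CD8 T cells and 4 in monocytes.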

How the data were processed

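The deposited tables held raw UMI counts per gene and cell, made by the authors from droplet libraries with Cell Ranger, with mm10 named in the submitters' notes; these notes also name Seurat version 2. Counts were used as deposited. Cells with 200 or more genes were kept, not counting 13 genes of the mitochondrion, 101 of the ribosome and 10 of hemoglobin (hemoglobin took 7.99% of untreated UMIs and 0.344% to 1.70% elsewhere). Gates used raw UMIs and doublets were not called. The T cell and NK gates required no Cd79a, Ms4a1 or Csf1r. Counts were summed per library and class and fitted with edgeR 4.0.16 (quasi-likelihood test, library as block, at least 10 cells per class in at least 3 libraries), with Benjamini-Hochberg adjustment at 0.05. DESeq2 1.42.0 was an alternative. Each treatment has 1 library, so p-values measure the spread of within-library differences across differently treated libraries. Intervals were exact Poisson, binomial or conditional binomial, and a count of 0 was given a floor of 3 counts (Python 3.11.15, scipy 1.17.1). Fits were tested on simulated data. Genes named were the receptors, the 3 genes most alike each and the 3 leading increases per split; other named genes are from the lists or were chosen after their values were seen. The receptors and lists were chosen with earlier results of these data known. Planned fits of monocytes against NK cells, monocyte subsets, Cxcr4+ CD8, Cxcr3+ CD4 and Ccr2+ CD4 T cells lacked cells. The 2152 ungated cells were not compared. Some genes that entered the class score and the list counts are not reported here by name.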

Additional observations from a re-analysis of the deposited data

How the results depend on the processing

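The calls of Cxcr3, Cxcr6 and Ccr2 between experienced and naive-type CD8 T cells, and of Cxcr3 and Ccr2 in CD4 T cells, kept their direction and side of the threshold under every alternative fitted. Those of Cxcr3 and Ccr2 passed the filter through the experienced class alone, so for them this is no separate support. Few cells per library limited the other comparisons, and the causes of the changes below were not tested. All libraries were replicate 1 of their treatment, so the library served as the pairing block; the values with no library block are given below. Fits with a minimum of 5 cells, the naive-type comparison and the level ratios that leave out a library were chosen after seeing the data.

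With no filter on low counts, the genes called were 541 (CD8 T against CD4 T cells), 222 (experienced CD8 T against experienced CD4 T cells), 264 (NK cells against experienced CD8 T cells), 137 (Cxcr3+ against Cxcr3- experienced CD8 T cells), 143 (Cxcr6+ against Cxcr6- experienced CD8 T cells), 138 (Ccr2+ against Ccr2- experienced CD8 T cells), 161 (Cx3cr1+ against Cx3cr1- experienced CD8 T cells), 88 (S1pr5+ against S1pr5- experienced CD8 T cells), 470 (monocytes against NK cells (5 or more cells)), 27 (Cxcr3+ against Cxcr3- experienced CD4 T cells (5 or more cells)). There, the receptors called were 2 (CD8 T against CD4 T cells), 5 (experienced against naive-type CD8 T cells), 4 (experienced against naive-type CD4 T cells), 1 (experienced CD8 T against experienced CD4 T cells), 1 (S1pr5+ against S1pr5- experienced CD8 T cells), 1 (monocytes against NK cells (5 or more cells)). There, the log2 fold change turned to 0.0375 (experienced CD8 T against experienced CD4 T cells: Cxcr6), -0.18 (NK cells against experienced CD8 T cells: Ccr2), -0.0387 (Ccr2+ against Ccr2- experienced CD8 T cells: Cx3cr1), -0.0466 (S1pr5+ against S1pr5- experienced CD8 T cells: Cxcr6).

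With DESeq2, the genes called were 187 (CD8 T against CD4 T cells), 549 (experienced against naive-type CD8 T cells), 178 (experienced against naive-type CD4 T cells), 30 (experienced CD8 T against experienced CD4 T cells), 70 (NK cells against experienced CD8 T cells), 2 (Cxcr3+ against Cxcr3- experienced CD8 T cells), 0 (Cxcr6+ against Cxcr6- experienced CD8 T cells, 28 at an unadjusted p under 0.05), 2 (Ccr2+ against Ccr2- experienced CD8 T cells), 8 (Cx3cr1+ against Cx3cr1- experienced CD8 T cells), 12 (S1pr5+ against S1pr5- experienced CD8 T cells), 0 (Cxcr3+ against Cxcr3- experienced CD4 T cells (5 or more cells), 19 at an unadjusted p under 0.05), 109 (naive-type CD8 T against naive-type CD4 T cells). There, the receptors called were 0 (Cxcr3+ against Cxcr3- experienced CD8 T cells), 0 (Cxcr6+ against Cxcr6- experienced CD8 T cells). There, the log2 fold change turned to 0.37 (experienced CD8 T against experienced CD4 T cells: Cxcr6), 0.0569 (Cx3cr1+ against Cx3cr1- experienced CD8 T cells: Ccr2).

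With DESeq2 size factors, the log2 fold change turned to 0.0169 (Cx3cr1+ against Cx3cr1- experienced CD8 T cells: Ccr2).

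With no library block (no pairing), the genes called were 110 (CD8 T against CD4 T cells), 34 (experienced CD8 T against experienced CD4 T cells), 96 (NK cells against experienced CD8 T cells), 0 (Cxcr3+ against Cxcr3- experienced CD8 T cells, 164 at an unadjusted p under 0.05), 0 (Cxcr6+ against Cxcr6- experienced CD8 T cells, 140 at an unadjusted p under 0.05), 0 (Ccr2+ against Ccr2- experienced CD8 T cells, 129 at an unadjusted p under 0.05), 0 (Cx3cr1+ against Cx3cr1- experienced CD8 T cells, 207 at an unadjusted p under 0.05), 4 (S1pr5+ against S1pr5- experienced CD8 T cells), 0 (Cxcr3+ against Cxcr3- experienced CD4 T cells (5 or more cells), 68 at an unadjusted p under 0.05), 214 (naive-type CD8 T against naive-type CD4 T cells). There, the receptors called were 0 (Cxcr3+ against Cxcr3- experienced CD8 T cells), 0 (Cxcr6+ against Cxcr6- experienced CD8 T cells), 0 (Ccr2+ against Ccr2- experienced CD8 T cells). There, the log2 fold change turned to -0.23 (CD8 T against CD4 T cells: Cxcr6), -0.0497 (Ccr2+ against Ccr2- experienced CD8 T cells: Cx3cr1), 0.00632 (Cx3cr1+ against Cx3cr1- experienced CD8 T cells: Ccr2).

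With cells thinned to 750 UMIs, the genes called were 432 (experienced against naive-type CD8 T cells), 190 (experienced against naive-type CD4 T cells), 64 (NK cells against experienced CD8 T cells), 3 (Cxcr3+ against Cxcr3- experienced CD8 T cells), 1 (Cxcr6+ against Cxcr6- experienced CD8 T cells), 5 (Ccr2+ against Ccr2- experienced CD8 T cells), 59 (monocytes against NK cells (5 or more cells)), 216 (naive-type CD8 T against naive-type CD4 T cells). There, the receptors called were 1 (CD8 T against CD4 T cells), 0 (NK cells against experienced CD8 T cells), 0 (Cxcr3+ against Cxcr3- experienced CD8 T cells), 0 (Cxcr6+ against Cxcr6- experienced CD8 T cells), 0 (naive-type CD8 T against naive-type CD4 T cells). There, the receptors at a ratio of 2 were 1 (anti-PD-L1 to untreated ratio, CD8 T gate). There, the log2 fold change turned to -0.0571 (CD8 T against CD4 T cells: Cxcr6).

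With gates on log-normalized values, the genes called were 119 (experienced CD8 T against experienced CD4 T cells), 52 (Cxcr6+ against Cxcr6- experienced CD8 T cells), 30 (Ccr2+ against Ccr2- experienced CD8 T cells), 24 (Cx3cr1+ against Cx3cr1- experienced CD8 T cells), 8 (S1pr5+ against S1pr5- experienced CD8 T cells), 0 (Cxcr3+ against Cxcr3- experienced CD4 T cells (5 or more cells), 134 at an unadjusted p under 0.05). There, the receptors called were 1 (CD8 T against CD4 T cells), 1 (experienced CD8 T against experienced CD4 T cells), 0 (NK cells against experienced CD8 T cells). There, the receptors at a ratio of 2 were 5 (anti-PD-L1 to untreated ratio, CD8 T gate), 5 (anti-OX40/CpG to untreated ratio, CD8 T gate). There, the log2 fold change turned to 0.0284 (experienced CD8 T against experienced CD4 T cells: Cxcr6), -0.0526 (Ccr2+ against Ccr2- experienced CD8 T cells: Cx3cr1), 0.14 (Cx3cr1+ against Cx3cr1- experienced CD8 T cells: Ccr2).

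With the left-out gene classes kept, the genes called were 248 (NK cells against experienced CD8 T cells), 54 (Cxcr6+ against Cxcr6- experienced CD8 T cells), 149 (Cx3cr1+ against Cx3cr1- experienced CD8 T cells), 4 (Cxcr3+ against Cxcr3- experienced CD4 T cells (5 or more cells)). There, the log2 fold change turned to 0.0184 (Cx3cr1+ against Cx3cr1- experienced CD8 T cells: Ccr2).

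Without the top 5% of cells by UMIs, the receptors at a ratio of 2 were 5 (anti-OX40/CpG to untreated ratio, CD8 T gate).

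Leaving out 1 library at a time, the genes called ranged from 130 to 286 (CD8 T against CD4 T cells), from 742 to 1356 (experienced against naive-type CD8 T cells), from 275 to 659 (experienced against naive-type CD4 T cells), from 4 to 179 (experienced CD8 T against experienced CD4 T cells), from 79 to 212 (NK cells against experienced CD8 T cells), from 11 to 97 (Cxcr3+ against Cxcr3- experienced CD8 T cells), from 0 to 80 (Cxcr6+ against Cxcr6- experienced CD8 T cells), from 2 to 14 (Ccr2+ against Ccr2- experienced CD8 T cells), from 28 to 72 (Cx3cr1+ against Cx3cr1- experienced CD8 T cells), from 15 to 61 (S1pr5+ against S1pr5- experienced CD8 T cells), from 0 to 11 (Cxcr3+ against Cxcr3- experienced CD4 T cells (5 or more cells)), from 309 to 444 (naive-type CD8 T against naive-type CD4 T cells). The receptors called ranged from 0 to 2 (CD8 T against CD4 T cells), from 3 to 5 (experienced against naive-type CD8 T cells), from 0 to 1 (experienced CD8 T against experienced CD4 T cells), from 0 to 2 (Cxcr3+ against Cxcr3- experienced CD8 T cells), from 0 to 1 (Cxcr6+ against Cxcr6- experienced CD8 T cells), from 0 to 1 (Ccr2+ against Ccr2- experienced CD8 T cells), from 0 to 1 (S1pr5+ against S1pr5- experienced CD8 T cells), from 0 to 1 (monocytes against NK cells (5 or more cells)). Among values that changed sign, the log2 fold change ranged from -0.32 to 0.96 (CD8 T against CD4 T cells: Cxcr6), from -0.55 to 0.023 (experienced CD8 T against experienced CD4 T cells: Cxcr3), from -0.44 to 0.48 (experienced CD8 T against experienced CD4 T cells: Cxcr6), from -0.53 to 0.17 (experienced CD8 T against experienced CD4 T cells: Ccr2), from -0.27 to 0.34 (NK cells against experienced CD8 T cells: Ccr2), from -0.35 to 0.16 (Cxcr6+ against Cxcr6- experienced CD8 T cells: Cx3cr1), from -0.49 to -0.0114 (Ccr2+ against Ccr2- experienced CD8 T cells: Cx3cr1), from -0.14 to 0.20 (Cx3cr1+ against Cx3cr1- experienced CD8 T cells: Ccr2), from -0.0645 to 0.36 (S1pr5+ against S1pr5- experienced CD8 T cells: Cxcr6), from -0.00801 to 0.71 (S1pr5+ against S1pr5- experienced CD8 T cells: Ccr2), from -0.0138 to 0.52 (Cxcr3+ against Cxcr3- experienced CD4 T cells (5 or more cells): Cxcr6). The ratio of Cxcr4 levels between experienced and naive-type CD8 T cells ranged from 0.482 to 1.001. With 2 libraries left, the spread is that of few samples.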
